A study of Mus musculus with 2 samples.

Results

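The genes described here carry out antigen presentation by MHC class I in the mouse: H2-K1, H2-D1, B2m, Tap1, Tap2, Tapbp, Psmb8, Psmb9, Psmb10 and Nlrc5. They were listed by name, and all 10 were found among the 21938 protein-coding genes of the GENCODE M21 annotation. For each gene, DNase-seq peaks were collected within 500 bp of any annotated start, inside the gene and within 50 kb of its span, together with the footprints in them. DNase-seq maps DNA that DNase I can cut in nuclei, and a footprint is a short stretch inside such DNA that is cut less than its surroundings, as under a bound protein.

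The tissue was spleen of male B6CASTF1/J mice at 10 days of age, a first-generation cross of C57BL/6J and CAST/EiJ. There were 2 libraries of 1 group, untreated as far as the labels say, called replicate 1 and replicate 2; the labels name 2 males under a shared donor identifier. Without a second group there is no contrast, so no test was made, and each value is given for each library. Positions are on mm10, the assembly of C57BL/6J, and no value distinguishes the alleles of the cross. The depth is unknown, since read totals were not analysed here. Replicate 1 had 130476 peaks and 404781 footprints, and replicate 2 had 95847 peaks and 276537 footprints. The peak signals are given as deposited, with a scaling constant that the sources used here do not give. They are therefore ranked within a library, and the ratio of the libraries at a gene is set beside the same ratio over all promoters. A promoter peak was found in both libraries at 9 of 12 spleen and blood marker genes (75%), against 60.7% of all protein-coding genes. Among these 9, Epor, the erythropoietin receptor, was the strongest (17.9 and 6.22). The weakest by the mean of the libraries was Tlx1, a factor needed to form the spleen (0.465 and 0.331). Spic, a factor of red pulp macrophages, had none in either library. Of 8 marker genes of other tissues, 1 (Syp, 5.82 and 3.26) had a promoter peak in both, and 7 had none in either, among them Alb, Umod, Ins2, Apoa1 and Myh6.

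Class I molecules show peptides from inside the cell to CD8+ T cells. The proteasome cuts proteins into peptides, Tap1 and Tap2 form the transporter that moves them into the endoplasmic reticulum, tapasin (Tapbp) holds the empty class I molecule at that transporter, and the heavy chain leaves for the surface with B2m and a peptide. Psmb8, Psmb9 and Psmb10 are the catalytic subunits that replace Psmb5, Psmb6 and Psmb7 in the immunoproteasome. Nlrc5 is the transactivator of class I genes and acts through proteins bound to a conserved promoter module, which holds an X2 box bound by CREB and ATF factors and a Y box bound by NF-Y. Upstream of that module, class I heavy chain genes carry a kappaB element, and interferon-stimulated response elements (ISREs) bind IRF factors.

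The sequences below show the part of these promoters that the footprints fall on. The TGACG of a cyclic AMP response half-site, the core of an X2 box, lay in the strongest promoter peak of H2-K1, H2-D1, B2m, Tap1 with Psmb9, Psmb8 and Psmb10, in a footprint of both libraries each time. A further TGACG of B2m, downstream of its start, lay in no footprint. Each line gives 30 bases of the mm10 reference around it, read 5′ to 3′ on the strand that spells TGACG, with the TGACG in capitals.
H2-K1 (chr17:34000371-34000400, minus strand): tccggacactgtTGACGcgcagtcagctct
H2-D1 (chr17:35262981-35263010, plus strand): ccgggacactgaTGACGcgctggcaggtct
B2m (chr2:122147597-122147626, plus strand): ctaggagactggTGACGacctccggatctg
Tap1 and Psmb9 (chr17:34187458-34187487, plus strand): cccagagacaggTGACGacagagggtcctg
Psmb8 (chr17:34197649-34197678, plus strand): gggcccggtgtgTGACGtcagcagttcctg
Psmb10 (chr8:105937073-105937102, plus strand): gcgtcctgcaatTGACGctgcctcttccgg
The half-site ended 37 bases upstream of the first RefSeq start of H2-K1, 97 upstream of that of H2-D1, 74 upstream of that of B2m and 82 upstream of that of Tap1. At Psmb8 the site was a full palindrome, so TGACG reads on both strands. The palindrome ended 53 bases upstream of the most upstream GENCODE start, and the TGACG of the plus strand 56 bases upstream. At Psmb10 the half-site lay inside the gene and on the strand opposite to it. The weak peak next to the RefSeq start of Psmb10 held no TGACG.

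The heavy chain genes H2-K1 and H2-D1 also shared the kappaB element GGGATTCCC, shown here because no other strongest member promoter peak held these exact letters. It is given in capitals within 30 bases on the strand of each gene.
H2-K1 (chr17:34000438-34000467, minus strand): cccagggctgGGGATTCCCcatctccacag
H2-D1 (chr17:35262914-35262943, plus strand): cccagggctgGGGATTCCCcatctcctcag
In both genes, 60 bases separated the kappaB element from the TGACG. The footprints differed at this element. All 9 of its bases lay in a footprint of each library at H2-D1, whereas at H2-K1 footprints covered 7 of the 9 bases in replicate 1 and 1 of the 9 in replicate 2.

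Longer stretches of 5 promoters show how the footprints were spaced. Here capitals mark bases that lay in footprints of both libraries, the strand is that of the gene, and each stretch stops before bases annotated as untranslated. For Nlrc5 that point lies downstream of the most upstream start, which belongs to a noncoding transcript.
H2-K1 (chr17:34000348-34000500, minus strand): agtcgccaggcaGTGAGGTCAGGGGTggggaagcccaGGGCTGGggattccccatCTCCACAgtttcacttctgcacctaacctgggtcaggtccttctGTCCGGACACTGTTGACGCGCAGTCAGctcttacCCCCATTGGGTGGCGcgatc
B2m (chr2:122147561-122147685, plus strand): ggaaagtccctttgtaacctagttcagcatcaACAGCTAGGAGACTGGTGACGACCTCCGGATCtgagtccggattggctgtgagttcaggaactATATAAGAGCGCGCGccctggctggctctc
Tapbp (chr17:33915781-33915898, plus strand): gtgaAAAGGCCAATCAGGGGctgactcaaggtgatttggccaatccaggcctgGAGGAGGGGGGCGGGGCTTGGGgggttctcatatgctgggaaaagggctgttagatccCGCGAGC
Psmb8 (chr17:34197581-34197720, plus strand): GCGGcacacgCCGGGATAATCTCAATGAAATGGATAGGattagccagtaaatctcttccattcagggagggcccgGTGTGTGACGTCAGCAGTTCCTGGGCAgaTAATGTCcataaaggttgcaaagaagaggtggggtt
Nlrc5 (chr8:94434221-94434390, plus strand): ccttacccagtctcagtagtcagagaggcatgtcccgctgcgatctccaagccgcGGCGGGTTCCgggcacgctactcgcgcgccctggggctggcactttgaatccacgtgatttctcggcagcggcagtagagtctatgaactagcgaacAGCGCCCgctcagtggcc
At H2-K1 the footprint on TGACG was followed by one over CCCCATTGGGTGGCG, which holds the Y box letters CCAAT on the opposite strand. The CCAAT of H2-D1 at chr17:35263018-35263022 and that of B2m had 0 bases in footprints of either library. At B2m one long footprint covered TGACG and its flanks, and a separate one lay on ATATAAGAGCGCGCG, just upstream of the start. At Psmb8 the whole palindrome lay within 1 footprint of each library.

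Each of the 10 genes had a promoter peak, and had it in both libraries. The background was high: 13323 of the 21938 protein-coding genes did (60.7%, exact Clopper-Pearson 95% interval 60.1% to 61.4%, counting error only). A promoter peak as such was thus common, and the members spread widely in how strong theirs was. The strongest promoter peak was at H2-D1 in both libraries (29.99 and 11.9 in replicates 1 and 2), at the 95.8th and 96.0th percentile of the promoters with a peak in each library. The weakest was at Nlrc5 in both (3.36 and 1.78), at the 35.8th and 33.1st percentile. The median of all such promoters was 6.93 and 3.51. The shared peak of Tap1 and Psmb9 came second in both libraries and H2-K1 stayed between the stronger and the weaker genes. Tapbp and Tap2, and likewise Psmb8 and Psmb10, changed places between the libraries, so their order within each pair is not settled. Replicate 1 gave the higher value at each of the 10 genes, by a log2 ratio between 0.70 at Tap2 and 1.55 at Tap1 and Psmb9. Over all promoters with a peak in both libraries the median log2 ratio was 1.28, with an interquartile range of 1.02 to 1.49. In whole tissue, a site open in fewer cells and a site less open in each cell cannot be told apart.

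**Figure D1:**
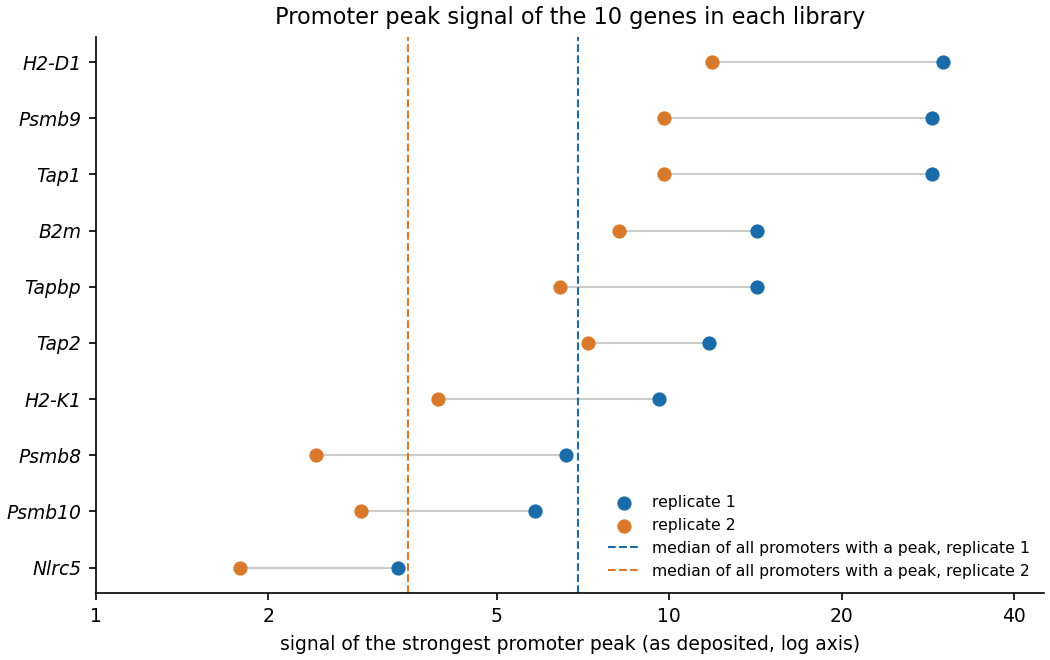
Signal of the strongest promoter peak of each gene on a log axis, as deposited, with replicate 1 in blue, replicate 2 in orange and dashed lines at the median of all promoters with a peak in that library (6.93 and 3.51). H2-D1 and the shared peak of Tap1 and Psmb9 lie far to the right of the medians, and Psmb8, Psmb10 and Nlrc5 lie to the left of them in both libraries.

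The heavy chain genes stood apart from each other. H2-D1, on chromosome 17 at 35262730 to 35267499 of the plus strand, had its peak at chr17:35262901-35263080, with 29.99 in replicate 1 and 11.9 in replicate 2. That peak ended 14 bases short of the RefSeq start and lay in the untranslated first exon of a longer GENCODE transcript. H2-K1, at 33996017 to 34000347 of the minus strand, had its peak over the start at chr17:34000261-34000500, with 9.60 and 3.95. This put it at the 58.5th and 54.2nd percentile, near the middle of all promoters. Yet the 2 promoters are close copies: aligned to each other, the peaks were identical at 163 of 181 columns (90.1%). The H2-D1 peak held 3 footprints in each library, covering 92 of its 180 bases in both. The H2-K1 peak held 7 in each, covering 95 of 240 bases in both.

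H2-K1 and H2-D1 are the members with near-identical copies in the genome. Besides each other, their peaks matched the starts of H2-Q4, H2-Q5, H2-Q6, H2-Q7, H2-Q10 and H2-K2, at 78.2% to 86.1% identity. The H2-K1 peak had 14 other matches in the reference and the H2-D1 peak 15, while the strongest peaks of the other members had 0. Cut into words of 32 bases, 12.0% of the H2-K1 peak and 11.4% of the H2-D1 peak occurred again elsewhere, against 0% for the promoter peaks of the other members. Over exons the shares were 32.1% and 29.0%, against at most 3.46% (Tapbp) in the others. The sources used here do not say how reads with more than 1 placement were treated, so the signals of these 2 genes are less certain than those of the rest.

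B2m, the light chain shared by all class I molecules, lies on chromosome 2 at 122147686 to 122153083 of the plus strand and has 1 annotated start. Its peak at chr2:122147561-122147740 covered that start, with 14.3 in replicate 1 and 8.18 in replicate 2 (71.7th and 84.5th percentile). Of its 4 footprints in replicate 1, 3 were matched by the 3 of replicate 2. A second peak downstream of the start had 2.34 and 1.10, and one in the intron at chr2:122148641-122148840 had 3.56 and 2.20.

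The strongest promoter peaks of the peptide transporter genes lay above the median of all promoters with a peak in both libraries. Tap1 and Psmb9 are transcribed away from each other, with RefSeq starts at 34187556 and 34187330 of chromosome 17, and a single peak of each library lay over the space between them, in replicate 2 reaching over the Psmb9 start. It spanned chr17:34187341-34187500 in replicate 1 (28.7) and chr17:34187321-34187520 in replicate 2 (9.80), at the 94.98th and 91.2nd percentile. The peak cannot be divided between the 2 genes, so the 10 genes have 9 strongest promoter peaks. All 4 of its footprints in replicate 1 overlapped footprints of replicate 2, and 90 of its 160 bases lay in footprints of both. Tap2 had its strongest peak over the RefSeq start at 34204479, at chr17:34204421-34204560 with 11.7 in replicate 1 and 7.23 at chr17:34204401-34204560 in replicate 2 (64.95th and 79.4th percentile). The most upstream GENCODE start of Tap2, at 34203527, had a peak of 0.533 in replicate 1 and none in replicate 2. With the most upstream start alone, Tap2 was the member without a promoter peak in both libraries. A start of Gm20496 lay within 500 bp of the same strong peak.

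Tapbp, which encodes tapasin, lies at 33915899 to 33929292 of the plus strand and had peaks along its 5′ part. At its most upstream start the peak had 14.2 in replicate 1 and 5.22 in replicate 2. This place is also the promoter of Zbtb22, so it cannot be given to Tapbp alone. At the RefSeq start, 33919478, the peak had 7.79 and 3.30. A peak in an intron at chr17:33920841-33921040, near the start of a processed transcript, had 6.44 in replicate 2, where it was the strongest of the gene, and 12.6 in replicate 1. Tapbp was the only member whose strongest peak differed between the libraries.

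The immunoproteasome genes differed in where their peaks lay. Psmb9 shares the strong peak described with Tap1. Psmb8, at 34197721 to 34201454 of the plus strand, had 6.61 and 2.42 at its most upstream start (48.8th and 39.8th percentile) and 3.50 and 1.503 at chr17:34198241-34198420 in replicate 1, next to the RefSeq start at 34198195. Psmb10, on chromosome 8 at 105935735 to 105938444 of the minus strand, had its strongest peak inside the gene. That peak had 5.84 in replicate 1 and 2.91 in replicate 2 (46.2nd and 44.6th percentile) and lay at the start of a transcript with a retained intron. The peak at the most upstream start of Psmb10 had 1.09 and 0.494. The standard subunits that these genes replace had values of 9.67 and 4.33 (Psmb5), 12.8 and 3.95 (Psmb6) and 13.1 and 4.46 (Psmb7). In both libraries Psmb9 lay above all 3 of them, and Psmb8 and Psmb10 lay below all 3.

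**Figure D2:**
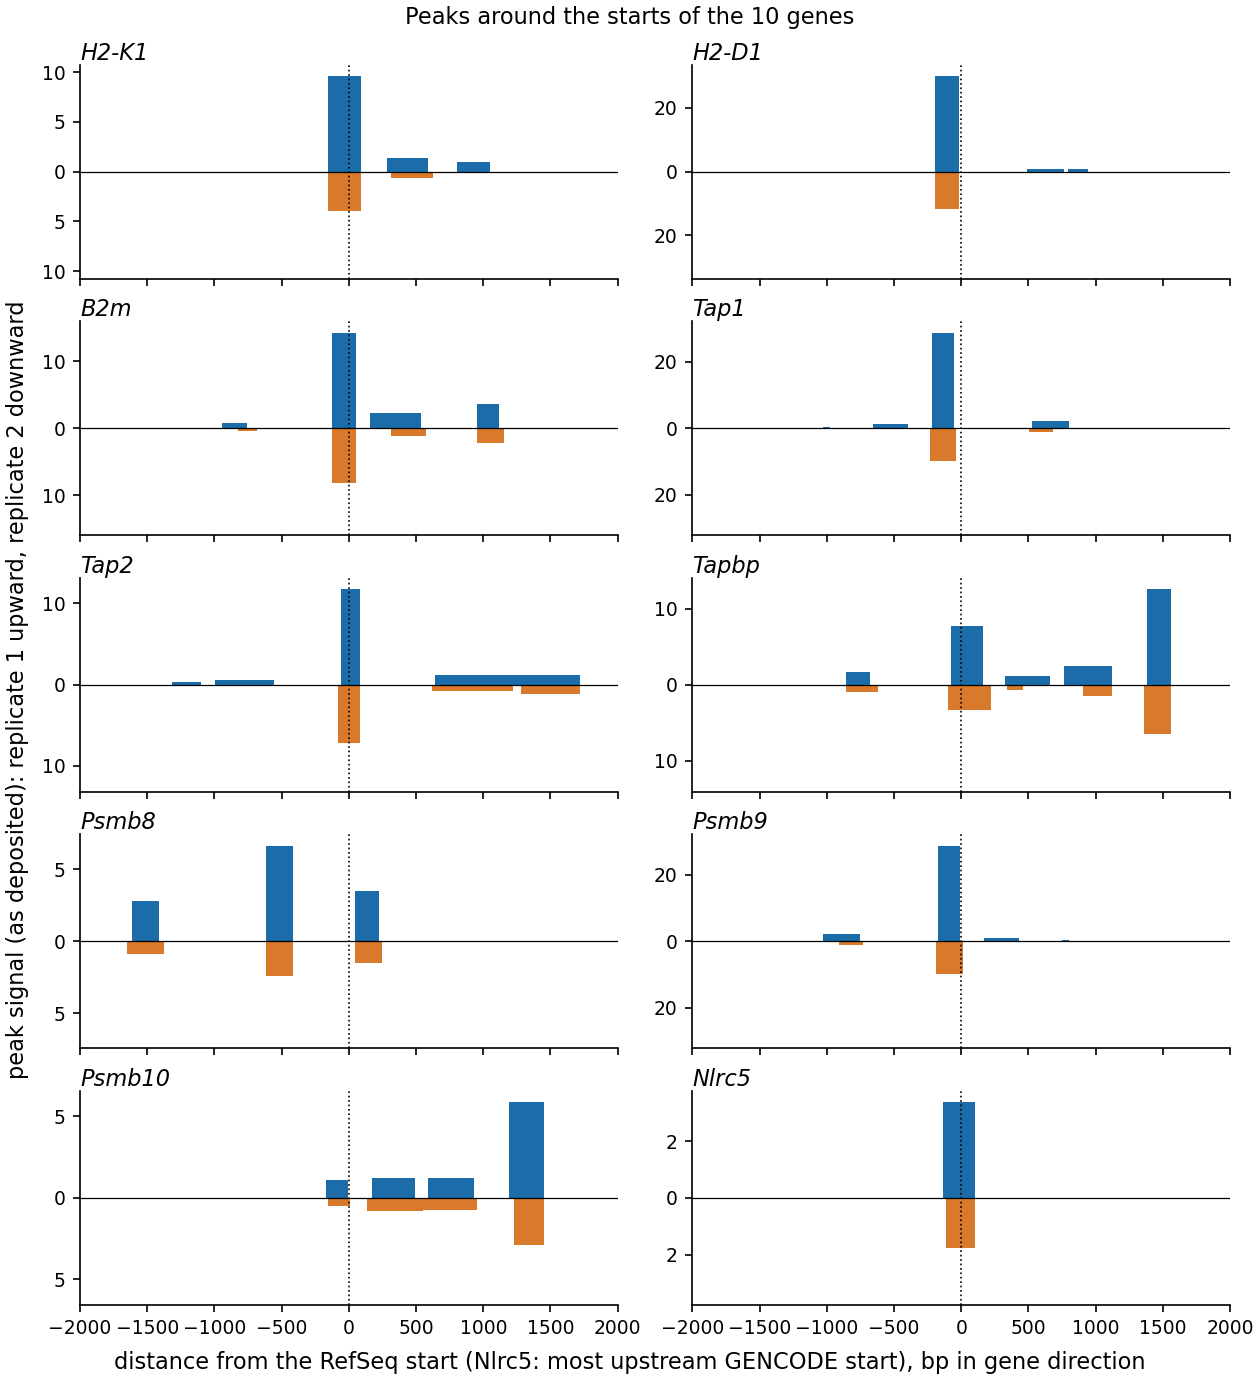
Peaks within 2000 bp of the RefSeq start of each gene (for Nlrc5, of its most upstream GENCODE start), in the direction of the gene, with the signal as deposited of replicate 1 drawn upward in blue and of replicate 2 downward in orange; axes differ between genes. H2-K1, B2m and Tap2 have their strongest peak on the start, H2-D1 and Tap1 just upstream of it, and Psmb10 well inside the gene.

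Nlrc5, on chromosome 8 at 94434356 to 94527272 of the plus strand, had the weakest strongest promoter peak of the 10 genes. The peak lay at chr8:94434221-94434460 in replicate 1 (3.36) and at chr8:94434241-94434460 in replicate 2 (1.78), over the most upstream GENCODE start and beside that of the noncoding gene 9330175E14Rik. The curated RefSeq transcript starts at 94472763, which is also its first coding base, so the transcript has no annotated untranslated part there. A peak of replicate 1 alone at that start (0.199) is counted among the promoter peaks of the gene. A stronger site than the promoter lay in an intron at chr8:94492501-94492680, with 5.21 in replicate 1 and 2.72 in replicate 2. It was the strongest distal site of Nlrc5 found in both libraries.

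Along Nlrc5 and Tap2 the libraries differed. Replicate 1 had 39 peaks in the Nlrc5 span and replicate 2 had 4. Of those of replicate 1, 35 were in that library alone and lay between 94468741 and 94488941. Their signals were low, with a median of 0.116 and a range of 0.0525 to 0.281, against a median of 0.578 for all peaks of the library. Bases with a false discovery rate of the cut rate below 0.05 made up 68.7% of that 20201 bp in replicate 1 and 1.21% in replicate 2. In Tap2, replicate 1 had 23 peaks and replicate 2 had 6. Between 34203481 and 34216500, 17 peaks were in replicate 1 alone (median 0.221), and bases below 0.05 made up 91.2% and 19.7%. Only peaks overlapping the gene were taken, so the limits of this run follow those of Tap2. Peaks of replicate 1 alone, most of them weak, went on beyond Tap2 to at least 34254463. They lay between genes and along the class II gene H2-Ob, with sites of both libraries among them. These runs were chosen after their values were seen. Over the genome such bases made up 1.49% in replicate 1 and 1.14% in replicate 2, and of 136288 bins of 20 kb, 110 were covered to at least 50% in replicate 1 and 16 in replicate 2. The strong peaks of both genes, given above, were in both libraries.

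**Figure D3:**
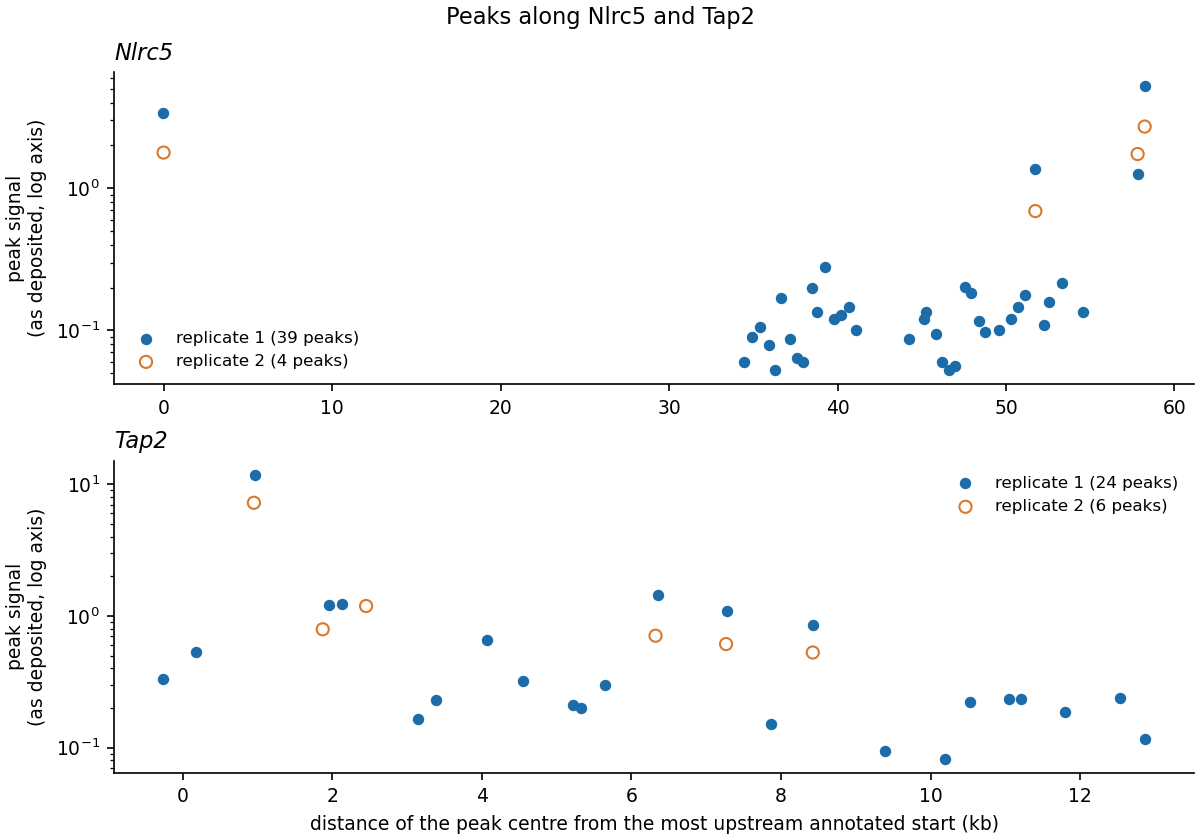
Signal (log axis, as deposited) of every peak in Nlrc5 and Tap2 and up to 500 bp before them against the distance of its centre from the most upstream annotated start, replicate 1 as filled blue points and replicate 2 as open orange circles. Replicate 1 has 39 peaks in Nlrc5 against 4 of replicate 2, and most of those without a partner are weak, whereas the strong peaks come in pairs.

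Inside the strongest promoter peaks of the members, most footprints of replicate 1 overlapped one of replicate 2. The 9 peaks held 42 footprints in replicate 1, of which 37 (88.1%) did so. An overlap of 1 base counted. The same share over all promoters was not computed, so it cannot be said whether 88.1% is particular to the members. Of the 1760 bases of these peaks, 700 lay in footprints of both, likewise without a share over all promoters. Over all promoter peaks of the members there were 108 footprints in 36 peaks of replicate 1 and 75 in 24 peaks of replicate 2. The strongest promoter peak of a gene held a median of 4 footprints in both libraries over all genes, and between 3 (H2-D1) and 7 (H2-K1) at the members in replicate 1.

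Motif letters were counted on both strands in 200 bp centred on the strongest promoter peak, for 9 member windows and for all 12139 distinct windows of promoters with a peak in both libraries. A match is a description of the letters, not of a bound factor. TGACG was in 6 of the 9 member windows against 27.1% of all windows, and in all 6 it lay in a footprint of both libraries, against 13.9% of all windows. Over all windows, 51.3% of TGACG matches lay in footprints of both. The kappaB letters GGGATTCCC were in 2 of 9 (H2-K1 and H2-D1) against 0.280% of all windows. CCAAT was in 5 of 9, namely H2-K1, H2-D1, B2m, Tap1 with Psmb9, and Tapbp, against 30.4%. It lay in a footprint of both libraries in 3 of these, H2-K1, Tap1 with Psmb9, and Tapbp, against 12.2% of all windows. Over all windows, 33.0% of CCAAT matches lay in footprints of both. A match counts as in a footprint when at least 1 of its bases is.

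Interferon-related letters were sought in 3 spellings. The ISRE core GAAANNGAA was in the windows of Tap2 and Nlrc5 (2 of 9, against 3.39% of all windows). Neither match lay in a footprint of either library. Over all windows, 35.2% of such matches lay in footprints of both, and 1.23% of windows held one. These 30-base stretches show the matches of Tap2 and Nlrc5, which sit between footprints, in capitals and on the strand that spells them.
Tap2 (chr17:34204491-34204520, plus strand): gcagtgaagtGAAAGCGAAagccgcgggac
Nlrc5 (chr8:94434383-94434412, minus strand): gcgctctgtgGAAACTGAAagtggccactg
The weak peak of Psmb10 next to its RefSeq start held 4 further matches, none in a footprint, of which 1 is shown for its likeness to that of Tap2.
Psmb10 (chr8:105938109-105938138, minus strand): gggtgggggtGAAAGCGAAagtaggaagcg
That peak had 1.20 in replicate 1 and 0.829 in replicate 2, with 1 footprint in replicate 1 and 0 in replicate 2, so a missing footprint says little there. The ISRE letters with the spacing on the other side, GAANNGAAA, were added after the sequences had been seen. They were in the windows of H2-K1, H2-D1 and Tap2 (3 of 9, against 2.84% of all windows) and lay in footprints of both libraries in 0 of the 3, against 0.758% of all windows. At H2-K1 a footprint of replicate 2 covered 3 of the 9 bases, and at Tap2 the match overlaps that of GAAANNGAA. The letters of a gamma-activated site, TTCNNNGAA, were in Psmb8 alone (3.67% of all windows held them). A footprint covered 8 of the 9 bases in replicate 1 and 3 of the 9 in replicate 2.

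The remaining motifs were common in all promoters or scarce here. The GC box GGGCGG was in 3 of 9 member windows (Tap1 with Psmb9, Tapbp and Psmb10) against 63.5% of all. CCGGAAG, bound by ETS factors, was in the window of Psmb10 (15.3% of all windows). At chr8:105937096-105937102 it lay in a footprint of both libraries, and at chr8:105937123-105937129 in none. CACGTG was in that of Nlrc5 (8.20%), in a footprint of replicate 2 alone, and AGATAA, bound by GATA factors, in that of Psmb8 (2.29%), in a footprint of both. The strongest peak of Psmb10 also held a CACGTG in footprints of both, outside the 200 bp. No member window held the other kappaB letters sought, GGGANTTCC, which were in 1.79% of all windows. Further spellings of a kappaB site were not sought, so the counts do not show that the other promoters lack such a site. The B2m stretch printed above begins with ggaaagtccc, a further kappaB spelling when read on the opposite strand. A footprint of replicate 1 at chr2:122147557-122147565 covered its first bases, and no footprint of replicate 2 covered any of it. Other spellings may be present in these promoters. GAGGAAG of PU.1, GCGCATGCG of NRF1, the CTCF core CNAGNNGGC and TGTGGT of RUNX were also in no member window. They were in 9.23%, 3.61%, 26.9% and 7.41% of all windows. The member windows had a median of 61.5% G and C and 12 CpG, against 65.5% and 17 over all windows.

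**Figure D4:**
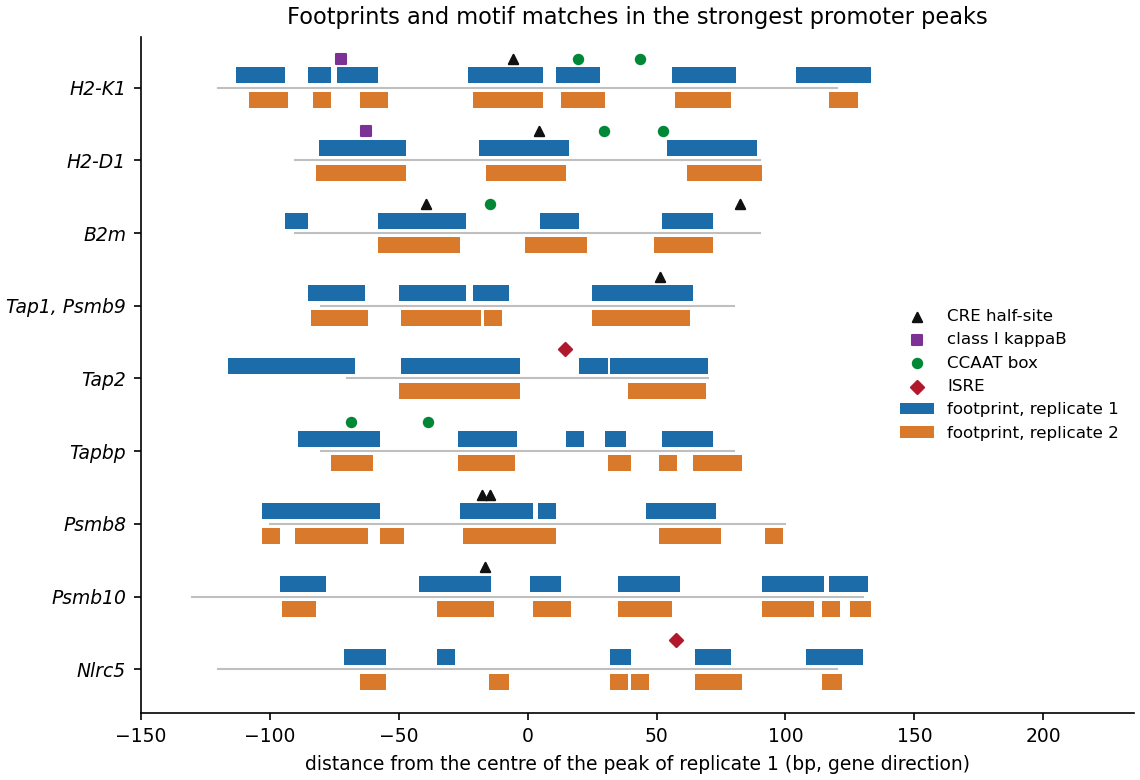
Footprints of replicate 1 (blue, upper bars) and replicate 2 (orange, lower bars) along the strongest promoter peak of each gene (grey line), against distance from the centre of the peak of replicate 1 in the direction of the gene, with motif matches as symbols. The black triangles of the TGACG half-site sit on footprints of both libraries in 6 of these peaks, apart from the second one of B2m. The peak of Psmb10 among them lies inside the gene. The red diamonds of the ISRE in Tap2 and Nlrc5 sit between footprints.

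Away from promoters, the strongest site found in both libraries near any member lay upstream of H2-D1, between genes at chr17:35258241-35258440, with 17.8 in replicate 1 and 9.37 in replicate 2. H2-D1 had 15 such distal sites inside it or within 50 kb. Around H2-K1 there were 6, of which the strongest by the mean of the libraries was at chr17:33982261-33982440 (5.24 and 2.27). Of the 32-base words of that site, 51.0% occurred again elsewhere in the reference, against 0% at the strongest site of H2-D1. At a distal site near Tap2 the share was 94.0%, so the limit on placing reads applies to some distal sites too. The neighbouring genes Tap1, Tap2, Psmb8 and Psmb9 had 15 to 19 each, mostly the same sites, and the strongest was at chr17:34170881-34171060 (7.43 and 4.53). Tapbp had 8, led by chr17:33968581-33968780 (4.37 and 2.57). B2m had 5, led by the site in its intron (3.56 and 2.20). Psmb10 had 5, led by one in an exon of Pskh1 (11.2 and 6.07), and Nlrc5 had 9, led by the site in its intron (5.21 and 2.72). At Psmb8, Psmb10 and Nlrc5 the leading distal site was stronger than any promoter peak of the gene in both libraries.

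The 50 kb windows of the 10 genes merged into 6, which covered 0.825 Mb. They held 134 sites found in both libraries, or 163 per Mb, against 26.8 per Mb over the genome. Of these, 64 were distal, or 77.6 per Mb against 17.9. By window the distal density ran from 46.7 per Mb at Nlrc5 to 143 per Mb at H2-D1. The windows are rich in genes, and their part in these densities was not tested. A further 145 sites were in replicate 1 alone and 12 in replicate 2 alone, against 53516 and 19909 over the genome. Of the 145, 70 lay in the window of Psmb9, Tap1, Psmb8 and Tap2 and 38 in that of Nlrc5. These windows hold the runs of weak peaks described above. The count of distal sites rests on replicate 2, the library with fewer peaks. With replicate 2 left out, the peaks of replicate 1 gave 174 distal sites. With replicate 1 left out, those of replicate 2 gave 72. Both counts include sites that the other library also had.

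Other genes of the pathway were taken from lists and counted in the same way, beside the 60.7% of all protein-coding genes with a promoter peak in both libraries. The ends of each list are by the mean of the libraries. All 8 genes of peptide loading and trimming had one, from Calr, the chaperone calreticulin (27.2 and 11.3), to Tapbpl, a tapasin-like editor of peptides (2.18 and 1.29). So did all 4 of the proteasome activator and its assembly, from Psme3 (14.6 and 5.36) to Psme1 (3.80 and 1.84). All 16 transcription factors that act on class I genes did too, from Nfya, a subunit of NF-Y (39.7 and 16.4), to Nfkb1 (2.50 and 1.23). All 7 interferon receptors and kinases did, from Ifnar1 (31.0 and 9.30) to Ifngr2 (3.60 and 1.65). The median signals of these lists in replicate 1 ran from 7.26 for the proteasome activator to 16.6 for the receptors and kinases. The members had 13.0, against 6.93 over all promoters with a peak, and their medians count the shared peak of Tap1 and Psmb9 for each gene. In that library the loading and trimming genes (15.9), the receptors and kinases and the transcription factors (13.04) lay above the members. In replicate 2 the members had a median of 6.84 and lay above all 4 lists, which had 4.94 (loading and trimming), 3.20 (activator), 5.83 (transcription factors) and 5.69 (receptors and kinases), against 3.51 over all.

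The other and nonclassical class I genes had a share close to that background. Of 22 listed, 19 were protein-coding in the annotation, and 11 of these had a promoter peak in both libraries (57.9%). H2-Q4 had the strongest (11.5 and 5.29) and, by the mean of the libraries, Fcgrt, the neonatal Fc receptor that also pairs with B2m, the weakest (1.23 and 0.611). Another 2 had one in replicate 1 alone. The 6 with none in either library included H2-Q1, H2-T3, H2-M10.1, H2-M9 and H2-M5. Many of these genes are near copies of each other, so the limit on placing reads given for H2-K1 and H2-D1 holds here too. All 10 MHC class II genes, with Ciita, their transactivator and the relative of Nlrc5, had a promoter peak in both libraries, between 0.739 and 24.3 in replicate 1 (median 3.65) and between 0.544 and 12.0 in replicate 2 (median 2.22). Both medians lay below those of the class I members.

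**Figure D5:**
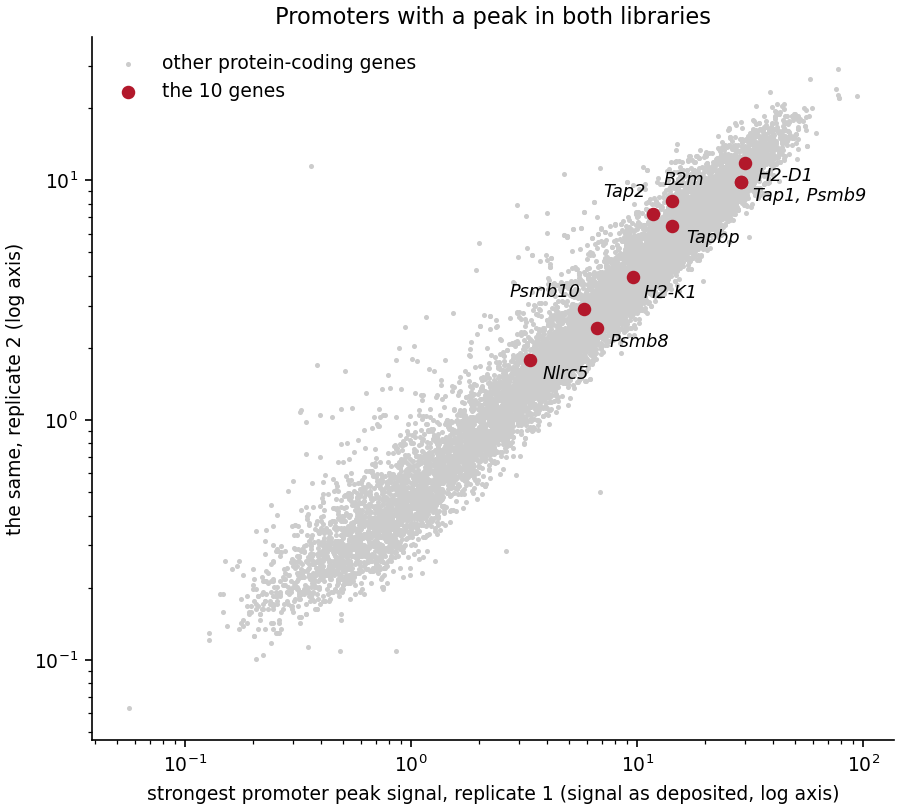
Strongest promoter peak signal in replicate 1 against replicate 2 (both log axes, as deposited) for the 13323 protein-coding genes with a promoter peak in both libraries, with the 10 members in red. The members lie along the same band as the other genes, from Nlrc5 (3.36 and 1.78) to H2-D1 (29.99 and 11.9).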

How the data were processed

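DNase-seq was measured in 2 spleen libraries of 1 group. Each file came from 1 library aligned to mm10 and filtered, without pooling, per the deposited README. The sources used here do not give the aligner, the callers or their versions. The peak signal, deposited by the authors, is depth-scaled with an unstated constant, and the longer of the 2 peak lists of each library was used. The false discovery rates of the cut rate, q-values deposited by the authors, are listed for bases below 0.05. Footprints, as deposited, carry the constant 0.01, which was not used.

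Peaks were joined by overlap of at least 1 bp with Python 3.11.15 and pandas and assigned to GENCODE M21 starts within 500 bp. Starts called RefSeq are those of curated transcripts. Sequences came from the RefSeq copy of GRCm38, whose chromosome ends no interval exceeded. Copies were sought with blastn at an E-value of at most 1e-05. Overlap queries and promoter assignment were tested on simulated data and returned 100% of the planted answers.

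The members and lists were chosen with earlier results of these data known. Named were all members with their strongest promoter and distal sites, all 14 motifs and 1 added after the data were seen, the standard proteasome subunits, and per list the strongest and weakest promoter and up to 5 genes without one. The alternatives were the shorter list, other windows and starts, stronger peaks, stricter overlap and leaving out each library.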

Additional observations from a re-analysis of the deposited data

How the results depend on the processing

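All 10 members kept a promoter peak in both libraries with the shorter deposited lists, a window of 1000 bp, starts of protein-coding transcripts alone and peaks at or above the median signal. With a window of 100 bp 9 did (all but H2-D1, whose RefSeq start is not a GENCODE start), and with the most upstream start alone 9 did (all but Tap2). Over all genes the share ran from 52.4% to 62.6% under these settings. Distal sites in both libraries numbered 42 with 25 kb and 105 with 100 kb either side in place of 64, and 72 to 174 when a library was left out. Footprints in member promoters, motif matches in footprints, the pathway lists and the member signals moved by less than 1.5 times or less than the spread between libraries under their alternatives. No paired analysis was possible because there is 1 group. The depth is unknown, so a missing peak or footprint, above all in replicate 2, is not shown to be absent.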
